A study of Mus musculus with 4 samples.

Results

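Bach1, Bach2, Nfe2l1, Nfe2l2, Keap1, Maff, Mafg and Mafk encode a network of transcription factors, and the sensor of one of them, through which cells answer heme and oxidants. They were found by symbol among the probe sets that the array annotation gives to a single gene, and 8 of 19938 measured genes were taken in this way. Each of the 8 had 1 probe set, and that of Bach1 was probe set 10436734. The data were 4 whole-transcript microarrays of adherent cells from mouse bone marrow grown with 20 ng/ml GM-CSF, a cytokine that drives marrow cells to become macrophages and dendritic-type cells. The groups were Bach1 (-/-) cells with heme, Bach1 (-/-) cells with vehicle, Bach1 (+/+) wild-type cells with heme and Bach1 (+/+) wild-type cells with vehicle. All were on the B6 background. Heme was added on day 6 at a dose written as 40 with the unit µm (taken here as micromolar), and its vehicle was 0.15 M NaCl with 10% NH4OH. All cultures held the same GM-CSF and 10% serum, and floating cells were discarded 24 hours after treatment. The kind of Bach1 allele, the number of mice behind a culture and their age were not given in the sources used here. Each group was 1 array. No difference therefore has a replicate error or a p-value, and none can be set against a spread between cultures.

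BACH1 and BACH2 are repressors with a BTB domain, and they bind DNA together with a small Maf protein at Maf recognition and antioxidant response elements. Heme binds BACH1, releases it from DNA and leads to its export and degradation. NRF2, the product of Nfe2l2, and NRF1, the product of Nfe2l1, are activators of the CNC family that use the same small Maf partners and overlapping elements. KEAP1 holds NRF2 in the cytoplasm for ubiquitination until oxidants or electrophiles modify its cysteines. NRF1 sits in the endoplasmic reticulum and raises proteasome genes when the proteasome is short. The small Maf proteins MAFF, MAFG and MAFK have no activation domain, so that their dimers repress or activate according to the partner. Much of the control of these factors is on the protein, which an RNA array does not measure.

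Promoter windows of the genes were examined for the element that these factors bind. The RefSeq table of build GRCm38.p6 held 14 windows for the 8 genes, each of 300 bases, from 250 bases before to 50 after a transcription start. The core of the antioxidant response element, TGACNNNGC on either strand, stood in 4 of the 14 windows, at 1 start each of Maff, Mafg, Mafk and Nfe2l2. Among all 32851 windows of the table, 12.4% held it. The windows of Mafg, Maff and Nfe2l2 are shown because they hold the core and come from genes with different patterns on the arrays, and that of Keap1, which differed most between arrays, because it holds none. Capitals mark the core, and the letters run 5′ to 3′ on the strand of the gene as the table gives them.
Mafg (chr11:120633498-120633797, minus strand): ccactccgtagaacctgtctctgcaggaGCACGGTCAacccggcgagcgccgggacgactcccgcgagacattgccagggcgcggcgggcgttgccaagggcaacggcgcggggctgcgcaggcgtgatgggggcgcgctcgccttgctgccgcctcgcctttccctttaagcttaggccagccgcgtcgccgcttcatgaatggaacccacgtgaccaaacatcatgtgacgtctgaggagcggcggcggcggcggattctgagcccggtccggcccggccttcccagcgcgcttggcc
Maff (chr15:79346371-79346670, plus strand): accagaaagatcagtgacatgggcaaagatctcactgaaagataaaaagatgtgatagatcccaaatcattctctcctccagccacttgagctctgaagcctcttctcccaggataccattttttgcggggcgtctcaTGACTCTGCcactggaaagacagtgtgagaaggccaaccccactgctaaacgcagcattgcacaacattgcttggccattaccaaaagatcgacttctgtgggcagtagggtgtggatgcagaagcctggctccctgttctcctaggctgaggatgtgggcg
Nfe2l2 (chr2:75704614-75704913, minus strand): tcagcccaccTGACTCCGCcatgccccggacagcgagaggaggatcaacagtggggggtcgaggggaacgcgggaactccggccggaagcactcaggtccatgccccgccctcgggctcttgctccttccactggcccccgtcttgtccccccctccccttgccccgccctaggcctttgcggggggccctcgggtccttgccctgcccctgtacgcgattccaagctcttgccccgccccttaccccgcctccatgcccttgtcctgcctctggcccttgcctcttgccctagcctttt
Keap1 (chr9:21239283-21239582, minus strand): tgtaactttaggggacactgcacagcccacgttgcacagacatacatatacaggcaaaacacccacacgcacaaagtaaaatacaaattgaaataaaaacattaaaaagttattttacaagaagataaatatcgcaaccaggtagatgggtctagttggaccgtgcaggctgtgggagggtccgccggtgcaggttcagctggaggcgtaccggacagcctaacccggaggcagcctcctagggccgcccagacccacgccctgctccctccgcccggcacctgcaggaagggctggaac
The core began 222 bases before the start in Mafg, 112 before it in Maff and 240 before it in Nfe2l2. In Mafk it began 13 bases before the start. Neither Bach1, Bach2, Nfe2l1 nor Keap1 had the core in its windows. A related core bound by NF-E2 and AP-1, TGANTCA, was in 0 of the 14 windows and in 7.81% of all windows. TGCTGA, a part of the Maf recognition element, was in 5 of the 14 windows, those of Bach1 and Mafk and 3 overlapping windows of Nfe2l1, and in 19.5% of all. These matches describe the letters of the windows and are not binding sites. Maff and Nfe2l1 have several windows, and which start of a gene these cells used was not measured.

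The arrays had median signals between 30.4 and 31.4, and the correlation of log2 signals over probe sets was 0.975 to 0.981 in every pair of arrays. A gene was at level in a comparison when the brighter array reached the median of all values, a log2 signal of 4.95. Of the 8 genes, 7 were at level on all 4 arrays, and Bach2 was below it on all 4. A gene was counted as changed at a 2-fold difference, a log2 difference of 1. That count was 0 of the 7 genes at level in every comparison. Among all genes at level, 1.65% differed by 2-fold with heme in the labelled knockout and 2.06% with heme in wild type. The labelled knockout differed from wild type by 2-fold at 1.49% in heme and at 1.67% in vehicle. Over all genes at level, the robust SD of the log2 difference lay between 0.25 and 0.28 in these 4 comparisons, and it mixes technical noise with real differences.

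Bach1, the targeted gene, was read first. Its log2 signal was 7.68 in labelled knockout heme, 7.72 in labelled knockout vehicle, 8.05 in wild-type heme and 7.73 in wild-type vehicle. The wild-type heme array stood above the other 3 by more than their range, and those 3 lay between 7.68 and 7.73. In heme the labelled knockout was lower than wild type by a log2 difference of -0.37, a size that 18.6% of genes at level reached. In vehicle the difference was -0.01, and 98.1% of genes had as large a difference. The Bach1 signal thus did not separate the vehicle arrays by genotype label. The position of its probes relative to the deleted part is not given here, so the probe set checks nothing about the labels. The arrays are called labelled knockout for that reason.

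Heme went with a log2 difference of -0.05 at Bach1 in the labelled knockout and of 0.32, higher with heme, in wild type. In wild type, 29.5% of genes at level had as large a difference. The response of the labelled knockout minus that of wild type was -0.37, and 28.1% of genes had as large a difference of responses. Bach2, the paralog best known from B and T lymphocytes, had log2 signals of 3.33 in labelled knockout heme, 3.23 in labelled knockout vehicle, 3.54 in wild-type heme and 3.02 in wild-type vehicle. All 4 lay below the level filter, and how far they lie above background is unknown. The wild-type heme difference of Bach2 was 0.52, and it was 0.12 with 32 added to each signal. Of 9 measured markers of B, T and NK cells, 0 were at level on any array.

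**Figure D1:**
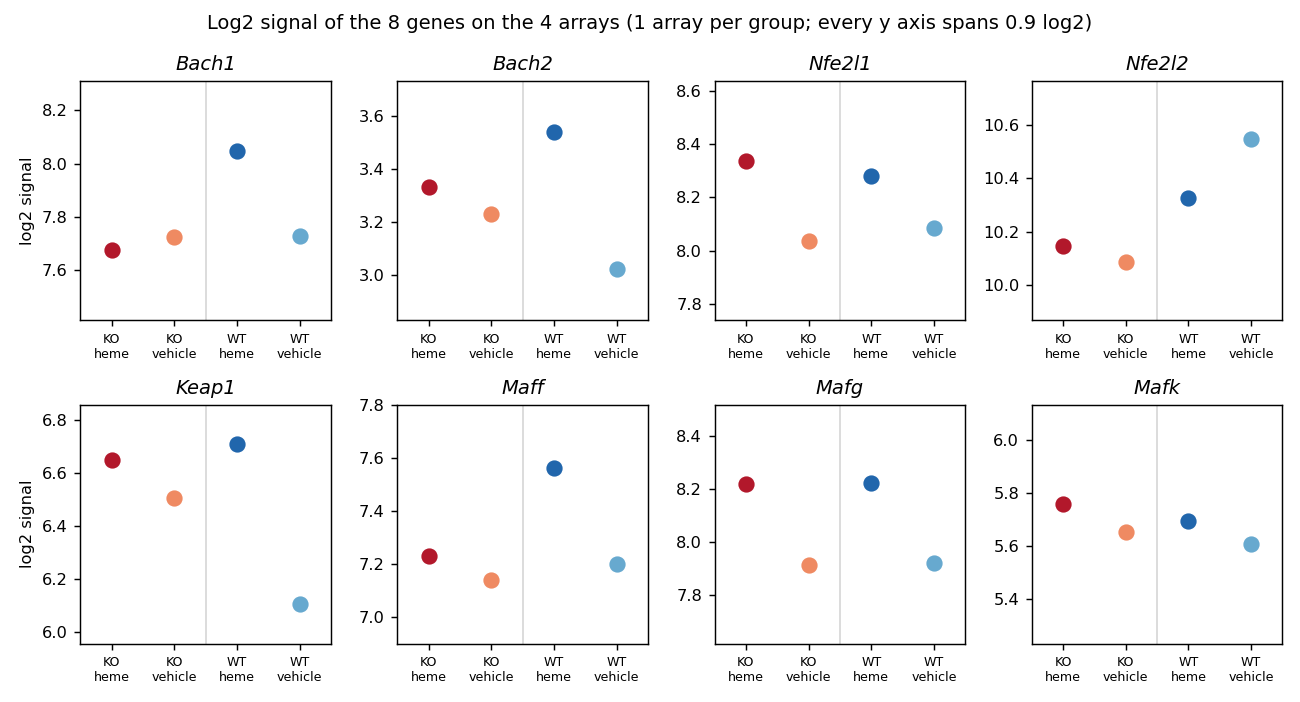
Log2 signal (y axis) of the 8 genes on each array (x axis, KO for labelled knockout and WT for wild type), 1 point per array and no error bars because each group is 1 array. Every y axis spans 0.9 log2. Bach1 and Maff are high in wild-type heme alone, Keap1 is low in wild-type vehicle alone, and Mafg has equal heights in the 2 genotypes with both heme points above both vehicle points.

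Nfe2l2, the gene of NRF2, ran against the other genes in wild type. Its log2 signal was 10.14 in labelled knockout heme, 10.09 in labelled knockout vehicle, 10.32 in wild-type heme and 10.55 in wild-type vehicle. Both labelled knockout arrays lay below both wild-type arrays, as also at Bach1, where the vehicle arrays differed by -0.01, and at 18.0% of genes at level. In vehicle the labelled knockout was 1.38-fold lower (log2 difference -0.46), the largest knockout difference among the 8 genes in either medium, and 13.3% of genes at level had as large a one. In heme the knockout difference was -0.18. With heme Nfe2l2 differed from vehicle by 0.06 in the labelled knockout and by -0.22 in wild type, so the heme responses had opposite signs, as they did at 39.6% of genes.

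Keap1, the sensor that holds NRF2, had the widest range of the 7 genes at level. Its log2 signal was 6.65 in labelled knockout heme, 6.51 in labelled knockout vehicle, 6.71 in wild-type heme and 6.11 in wild-type vehicle. Wild-type vehicle stood below the other 3 arrays by more than their range, which 5.72% of genes at level did. With heme the log2 difference of Keap1 was 0.14 in the labelled knockout and 0.60 in wild type, 1.52-fold higher there. As large a difference as that in wild type was found at 8.94% of genes. It was the only one of the 7 to pass 1.5-fold in any of the 4 comparisons, and it no longer passed after repeated quantile normalization (log2 difference 0.58, under the threshold of 0.585) or with 32 added to each signal (0.44). Of all genes at level, 8.10% passed 1.5-fold with heme in the labelled knockout and 9.71% with heme in wild type, and 6.81% did so between genotypes in heme and 7.56% in vehicle. The labelled knockout differed from wild type by -0.06 in heme and was 1.32-fold higher in vehicle (log2 difference 0.40). With 32 added the knockout difference in vehicle was 0.28. Keap1 and Nfe2l2 thus stood on opposite sides in vehicle, where Keap1 was higher and Nfe2l2 lower in the labelled knockout, each by less than 1.5-fold.

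The genes closest to Keap1 in pattern were Ube2o, Ankrd28, Csf1, Rhot1 and Grina. Likeness was the Euclidean distance between log2 signals on the 4 arrays, each gene centred on its own mean, over 11154 genes at level. Distances ran from 0.04 for Ube2o to 0.06 for Grina, against a median of 0.56 over all of these genes. Csf1, which encodes the growth factor M-CSF, read 404 in labelled knockout heme, 386 in labelled knockout vehicle, 437 in wild-type heme and 289 in wild-type vehicle. With 4 arrays, such likeness rests on few values.

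Nfe2l1, the gene of NRF1, had log2 signals of 8.34 in labelled knockout heme, 8.04 in labelled knockout vehicle, 8.28 in wild-type heme and 8.09 in wild-type vehicle. Both heme arrays lay above both vehicle arrays, by more than the genotypes differed in either medium. With heme Nfe2l1 was 1.23-fold higher in the labelled knockout (log2 difference 0.30) and 1.14-fold higher in wild type (0.20). Differences as large were found at 29.4% of genes at level in the labelled knockout and at 48.9% in wild type. The labelled knockout differed from wild type by 0.06 in heme and by -0.05 in vehicle.

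The 3 small Maf genes differed in pattern. Mafg, whose window above holds the core, had log2 signals of 8.22 in labelled knockout heme, 7.91 in labelled knockout vehicle, 8.22 in wild-type heme and 7.92 in wild-type vehicle. Both heme arrays lay above both vehicle arrays, and the genotypes all but coincided. The heme difference was 0.31 in the labelled knockout and 0.30 in wild type, 1.24-fold and 1.23-fold higher, and the labelled knockout differed by -0.003 in heme and by -0.01 in vehicle. The heme responses of Mafg in the 2 genotypes differed by 0.003, and 99.1% of genes at level had as large a difference of responses. Nfe2l1 and Mafg were the 2 genes whose heme arrays stood above the vehicle arrays by more than the genotypes differed, as 7.87% of all genes at level did.

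Maff, a small Maf gene known to be induced by stress and cytokines, had log2 signals of 7.23 in labelled knockout heme, 7.14 in labelled knockout vehicle, 7.56 in wild-type heme and 7.20 in wild-type vehicle. Like Bach1, it was high on the wild-type heme array alone. That array stood above the other 3 by more than their range at these 2 of the 7 genes, and at 5.55% of all genes at level. With heme Maff was 1.06-fold higher in the labelled knockout (log2 difference 0.09) and 1.28-fold higher in wild type (0.36). The labelled knockout differed from wild type by -0.33 in heme and by -0.06 in vehicle. Mafk, the third small Maf gene, had log2 signals of 5.76 in labelled knockout heme, 5.65 in labelled knockout vehicle, 5.70 in wild-type heme and 5.61 in wild-type vehicle. It varied least of the 8 genes, with a range of 0.15, and 91.8% of genes at level had as large a range. Its heme difference was 0.11 in the labelled knockout and 0.09 in wild type.

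**Figure D2:**
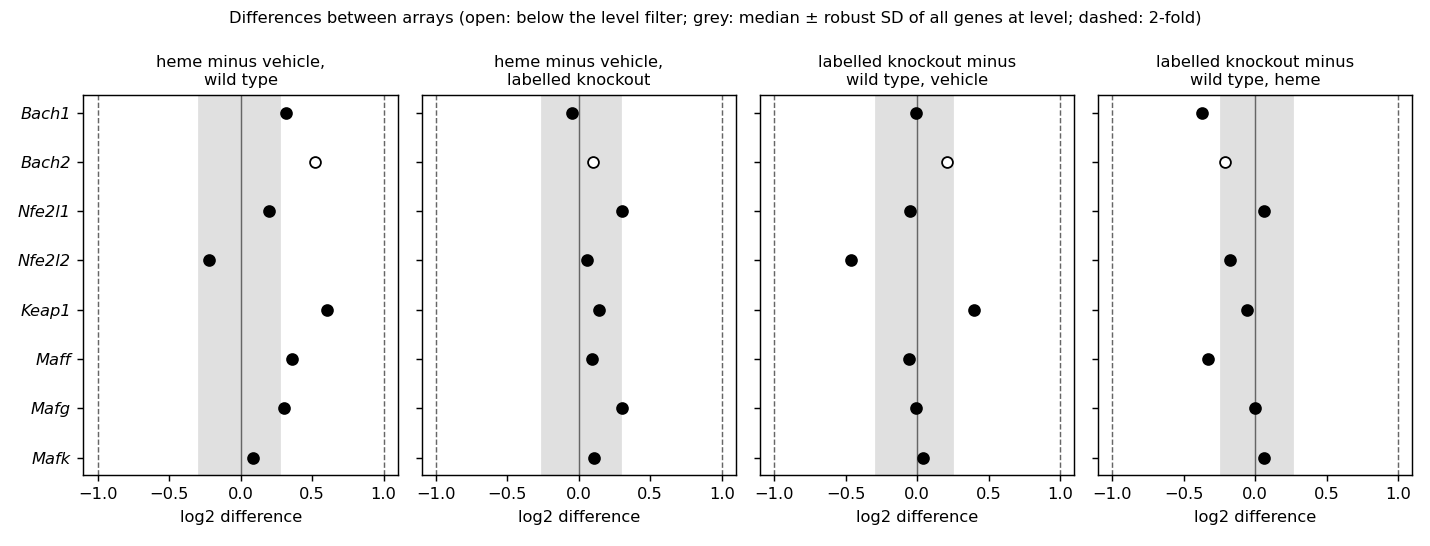
Log2 difference (x axis) of each of the 8 genes in the 4 comparisons, heme minus vehicle in each genotype and labelled knockout minus wild type in each medium. Grey bands are the median ± robust SD of all genes at level, dashed lines mark 2-fold, and the open point is Bach2, below the level filter. All points lie inside the dashed lines, with the outermost at 0.60 for Keap1 with heme in wild type.

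With heme in the labelled knockout, 7 of the 8 genes had a difference above 0 and Bach1 one below 0. Their median was 0.10, against 0.02 over all genes at level. At a smaller threshold, a log2 difference of 0.32 or more, 0 of the 7 genes at level passed, against 27.0% of all genes. With heme in wild type, 7 of the 8 were again above 0, with Nfe2l2 below, and the median was 0.31 against -0.01 over all genes. Keap1 and Maff were there past the smaller threshold, both higher, 2 of 7 against 28.9% of all genes, and Bach1 lay just under it. Over both genotypes, both heme arrays lay above both vehicle arrays at 5 of the 7 genes, Nfe2l1, Keap1, Maff, Mafg and Mafk, and at 21.4% of all genes at level. The opposite order was found at 0 of the 7 and at 19.5% of all.

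Between the genotypes in heme, the labelled knockout was above wild type at 2 of the 8 genes and below it at 6. The median was -0.12 with Bach2, which is below level, and -0.06 over the 7 genes at level. Over all genes at level it was 0.01. Bach1 and Maff were past the smaller threshold, both lower in the labelled knockout, 2 of 7 against 23.9% of all genes. In vehicle the labelled knockout was above wild type at 3 and below it at 5, with a median of -0.01 against -0.02 over all genes. Past the smaller threshold were Keap1, which was higher, and Nfe2l2, which was lower, 2 of 7 against 26.5%. The signs at Bach1, Nfe2l1 and Mafg in vehicle turned under another normalization. In heme that of Mafg also turned, from -0.003 to 0.02 after repeated quantile normalization, so the count of signs there is not firm. The shares past the smaller threshold were near those of all genes in both media.

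**Figure D3:**
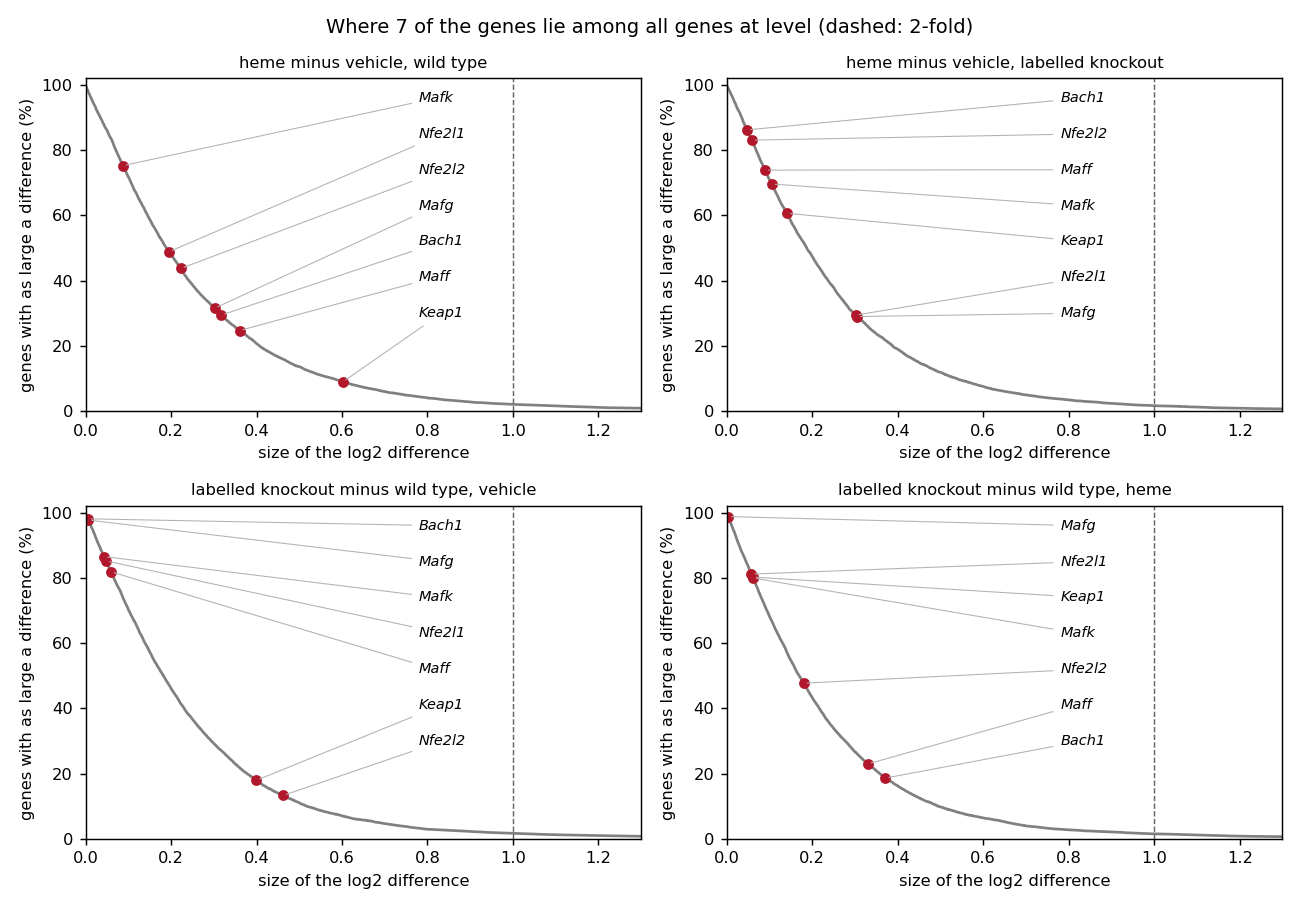
Percentage of genes at level with as large a log2 difference (y axis) against the size of that difference (x axis), with the 7 genes at level marked on the curve in each of the 4 comparisons. The smallest percentage is 8.94% for Keap1 with heme in wild type, and the dashed line marks 2-fold, which none of the 7 genes reaches.

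The other factors of these families also stayed inside 2-fold. Of the CNC and large Maf genes Nfe2, Nfe2l3, Maf, Mafa and Nrl, 4 were at level. Of these, 0 reached 2-fold or 1.5-fold in any of the 4 comparisons. Among all genes at level, 1.49% to 2.06% passed 2-fold and 6.81% to 9.71% passed 1.5-fold, so 0 of 4 does not set them apart. Nfe2, which serves erythroid and megakaryocyte genes, read 119 in labelled knockout heme, 117 in labelled knockout vehicle, 112 in wild-type heme and 101 in wild-type vehicle. Nfe2l3 read 33.7 in labelled knockout heme and 39.0 in labelled knockout vehicle, against 44.5 in wild-type heme and 47.8 in wild-type vehicle, so both labelled knockout arrays were below both wild-type arrays. Maf, the gene of c-Maf, read 43.8 in labelled knockout heme and 51.1 in labelled knockout vehicle, against 47.7 in wild-type heme and 56.7 in wild-type vehicle.

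Of 18 measured genes whose products control NRF2, NRF1 or BACH1 as proteins, 17 were at level. Among these, Sqstm1 alone passed 2-fold, with heme in both genotypes. Of all genes at level, 1.65% did so with heme in the labelled knockout and 2.06% in wild type. Sqstm1 encodes p62, which binds KEAP1 and is itself a target of NRF2. It read 1007 in labelled knockout heme against 399 in labelled knockout vehicle, and 1028 in wild-type heme against 345 in wild-type vehicle. Its log2 differences with heme were 1.33 in the labelled knockout and 1.58 in wild type. The ATPase gene Vcp, whose product draws NRF1 out of the endoplasmic reticulum, was 0.92 higher with heme in the labelled knockout and 0.47 in wild type. Rbx1, the RING subunit of the KEAP1 ubiquitin ligase with CUL3, was 0.52 higher with heme in the labelled knockout, and in vehicle the labelled knockout was at -0.61 from wild type. Fbxo22, which encodes a ubiquitin ligase subunit for BACH1, read 274 in labelled knockout heme, 198 in labelled knockout vehicle, 180 in wild-type heme and 216 in wild-type vehicle. Xpo1, the nuclear exporter of BACH1, differed between the labelled knockout and wild type by -0.40 in heme and by -0.29 in vehicle, lower in the labelled knockout. The median of the 18 genes was 0.07 with heme in the labelled knockout and -0.02 in wild type. Over all genes at level it was 0.02 and -0.01.

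Between heme and vehicle, the antioxidant genes of NRF2 and the proteasome genes of NRF1 had larger median differences than the factors. Their medians between genotypes were smaller in size. They were 0.09 in vehicle and 0.08 in heme for the antioxidant genes, and -0.16 and 0.16 for the proteasome genes. Of 17 antioxidant genes of NRF2 at level on both arrays compared, 4 were 2-fold higher with heme in the labelled knockout and 3 in wild type, with 0 lower in either. Of all genes at level on both arrays, 0.976% were 2-fold higher in the labelled knockout and 0.894% in wild type. Nqo1, Me1 and Gsta3 are not in these counts, since they were below level in both vehicle cultures and reached it through the heme arrays. Over all 21 measured antioxidant genes, with Nqo1, Me1 and Gsta3 among them, the medians were 0.70 in the labelled knockout and 0.72 in wild type. Over the 20 whose brighter array was at level, still with these 3, the median was 0.74 in both genotypes. A median without the 3 was not taken. The medians of all genes at level were 0.02 in the labelled knockout and -0.01 in wild type. Nfe2l2 itself stood at 0.06 and -0.22. Between genotypes in vehicle 0 of the 17 at level reached 2-fold, against 1.67% of all genes at level. In heme, where 1.49% of all genes did, only Slc7a11, the cystine transporter, reached it (381 in labelled knockout heme and 799 in wild-type heme). The glutathione synthesis gene Gclm read 820 in labelled knockout heme against 326 in labelled knockout vehicle, and 777 in wild-type heme against 188 in wild-type vehicle.

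Proteasome genes, the best known targets of NRF1, were 2-fold higher with heme at 21 of 32 in the labelled knockout and at 8 of 32 in wild type. Of all genes at level on both arrays, 0.976% and 0.894% were. The medians of the proteasome genes were 1.15 and 0.81. The Nfe2l1 differences beside them were 0.30 and 0.20. Psmc2, an ATPase subunit, read 406 in labelled knockout heme and 116 in labelled knockout vehicle, against 383 in wild-type heme and 178 in wild-type vehicle. Between genotypes 0 of the 32 reached 2-fold in vehicle or in heme, where 1.67% and 1.49% of all genes at level did. Of 10 heme and iron genes repressed by BACH1 or linked to it, 8 were at level on both vehicle arrays and 3 of these were 2-fold higher in the labelled knockout, with 0 lower, where 0.270% of all genes at level on both arrays were higher. Among them Hmox1, the heme-degrading enzyme, was at 2.31. Spic, a transcription factor gene of red pulp macrophages, read 298 in labelled knockout vehicle and 17.0 in wild-type vehicle, which is below level, so it is not counted and no fold is given. Bach1 and the small Maf genes differed there by between -0.06 and 0.04. In heme, 1 of 9 at level on both arrays was 2-fold higher in the labelled knockout, the iron exporter gene Slc40a1 (1.44), where 0.311% of all such genes were higher. The porphyrin transporter gene Abcb6 read 58.0 in labelled knockout heme and 28.3 in wild-type heme, and the wild-type value was below level.

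**Figure D4:**
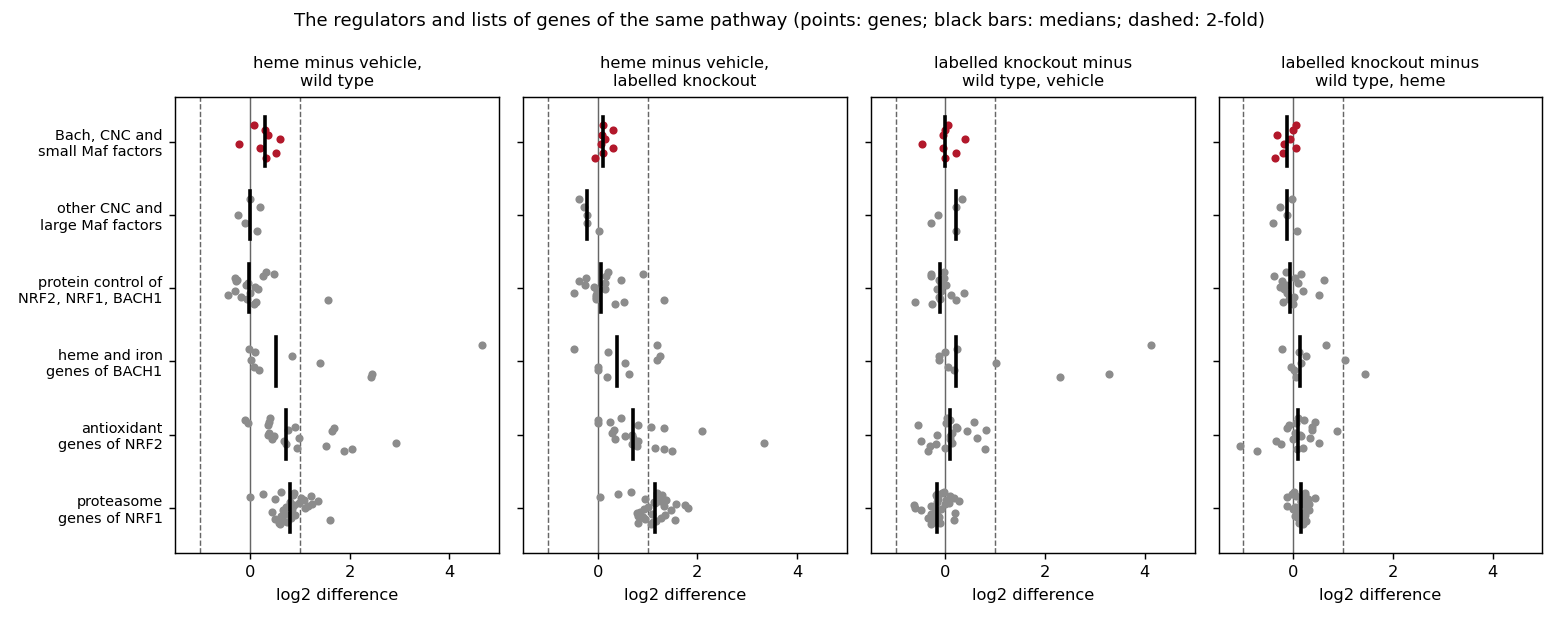
Log2 differences (x axis) of the 8 genes (red) and of 5 lists of genes of the same pathway (grey) in the 4 comparisons, 1 point per gene, genes below level included, with black bars at the medians and dashed lines at 2-fold. The red points stay inside 2-fold in all 4 panels, while the proteasome list has medians of 1.15 and 0.81 with heme.

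Markers of cell types were read on the same arrays. All 8 macrophage markers were at level, with summed signals between 18481 and 19454 on the 4 arrays, of which Lyz2 gave between 9990 and 10705. Single members differed more: Fcgr1 read 59.7 in labelled knockout heme and 84.7 in labelled knockout vehicle, against 83.3 in wild-type heme and 237 in wild-type vehicle. With heme in wild type Mertk was at -0.61 and Cd14 at 0.83. Summed over 10 dendritic cell markers, the signal was 3016 in labelled knockout heme and 3660 in labelled knockout vehicle. It was 8520 in wild-type heme and 10800 in wild-type vehicle. Most of the sum came from Cd74, H2-Aa and H2-Ab1 on every array. Flt3, Cd209a and Zbtb46 of that list were below level on all 4 arrays. Both labelled knockout sums lay below both wild-type sums, an order also seen at Bach1, Nfe2l2 and Nfe2l3 and at 18.0% of all genes at level. At Bach1 the vehicle arrays differed by only -0.01. The 10 neutrophil markers, of which Elane was below level, summed to 11463 in labelled knockout heme, 9093 in labelled knockout vehicle, 14219 in wild-type heme and 11005 in wild-type vehicle. The sum, carried by S100a8 and S100a9, was highest in wild-type heme. That array was also highest at Bach1, Keap1 and Maff, and at 23.6% of all genes at level. At Mafg it was highest too, but the labelled knockout differed from it by -0.003 in heme. Camp and Mmp8 were highest in labelled knockout heme and Mpo in labelled knockout vehicle. Of the other marker lists, 3 of 5 erythroid and megakaryocyte, 0 of 7 mast cell and basophil and 5 of 10 fibroblast and endothelial markers reached the level on any array. The part of these cells in the results was not tested, and fewer cells of a type and less RNA per cell cannot be told apart in such samples.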

How the data were processed

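Total RNA of 4 cultures was measured on mouse whole-transcript arrays. The authors deposited linear intensity values after RMA, per the submitters' processing notes. The program version and the genome build were not given in the sources used here, and the design text of the series describes other samples. No detection call came with the values, so depth and background are unknown, and 1 array per group limits the precision. Values were taken to log2 and compared as differences between arrays, with no further scaling and no p-value. Of 35556 probe sets, 21789 had a single gene symbol in the array annotation, and 21698 of these could be matched by Entrez number to RefSeq genes of GRCm38.p6. The brightest probe set stood for each of the 999 genes with several.

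The members, lists and tests were chosen with earlier results of these data known. Genes named were the 8 members, Nfe2, Nfe2l3 and Maf, Hmox1 and Spic, and those among the 3 largest differences at level of each pathway list. For the member at level with the widest range, the 5 nearest patterns were named. Not every gene that the rule allows is printed. Nrl, Mafa and the marker genes named stand outside the rule and were chosen after their values were seen. Some listed genes are not reported here. The threshold was also set at 1.5-fold and at a log2 difference of 0.32. Further alternatives were no level filter, a level at the 75th percentile, quantile normalization applied again, lowess centring (fraction 0.3), 32 added to each signal, and averaging the probe sets of a gene. Computations ran in Python 3.11.15 with pandas 2.3.3 and numpy 2.4.6, lowess came from statsmodels 0.14.6, and figures from matplotlib 3.10.9.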

Additional observations from a re-analysis of the deposited data

Results flagged for a closer look

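At 4 of the 7 genes at level, a comparison had opposite signs in its 2 settings, each of 1 array per group, and the difference was not tested. The heme response of Bach1 was -0.05 in the labelled knockout and 0.32 in wild type on the log2 scale, a difference of -0.37. That of Nfe2l2 was 0.06 in the labelled knockout and -0.22 in wild type, a difference of 0.28. The knockout difference of Keap1 was -0.06 in heme and 0.40 in vehicle, which gives -0.46. That of Nfe2l1 was 0.06 in heme and -0.05 in vehicle, which gives 0.11. Among all genes at level, heme responses of opposite sign were found at 39.6%, knockout differences of opposite sign at 42.6%, and either of these at 58.6%. The vehicle difference of Nfe2l1 turned positive under repeated quantile normalization (0.02) and lowess centring (0.01), where its knockout differences no longer had opposite signs. The knockout differences of Bach1 gained opposite signs under both settings. They were 0.05 in vehicle and -0.36 in heme after quantile normalization, and 0.05 and -0.39 with lowess. Those of Mafg did so with lowess alone (0.05 in vehicle and -0.01 in heme).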

How the results depend on the processing

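The count of members past 2-fold was 0 in all 4 comparisons as reported, and also with no level filter, with the filter at the 75th percentile, after repeated quantile normalization, with lowess centring, with 32 added and with the mean of probe sets. The mean of probe sets changes nothing here by construction, since each gene has 1. At 1.5-fold the count was 1 with heme in wild type, Keap1, and 0 in the other 3 comparisons, and Keap1 fell under 1.5-fold after repeated quantile normalization and with 32 added. At a log2 difference of 0.32 it was 2 with heme in wild type, 2 for the knockout in vehicle and 2 for the knockout in heme. The medians over the 8 genes moved by less than 0.1 under every setting. Of 40 single differences, 7 moved by 0.1 or more with 32 added, 4 of Bach2 and 3 of Keap1, and all 40 kept their sign. The sign changed at 5 of 40 under repeated quantile normalization and at 4 under lowess centring, each of a size of at most 0.05, at Bach1, Nfe2l1 and Mafg. In vehicle the labelled knockout was then above wild type at these 3 genes. No paired analysis was possible because each group holds 1 array and the labels give no replicate numbers. Cultures were not replicated, so no result here could be checked against their spread.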
